A study of Mus musculus with 32 samples.

Results

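Heat shock proteins of the cytosol and of the mitochondrial matrix were followed through 10 mouse genes: Hspa1a, Hspa1b, Hspa8, Hsph1, Hsp90aa1, Hspb1, Dnajb1, Bag3, Hspd1 and Hspe1. They were taken by symbol, as chaperones of the type that heat shock factor 1 (HSF1) controls, to be set against the misfolding of human islet amyloid polypeptide (IAPP). All 10 were found among the 36595 genes of the deposited table, and all 10 were among the 16428 genes that passed the filter on low counts. RNA was measured by poly(A) RNA sequencing in 32 libraries of cultured islets, 8 in each of 4 groups, which were hIAPP and mIAPP islets kept at 16.7 mM glucose, and hIAPP and mIAPP islets kept at 11.1 mM. In hIAPP mice the human gene stands at the mouse Iapp locus, put there by homologous recombination, and mIAPP mice are their wild-type littermates with mouse Iapp. All mice were of the C57BL/6NHsd background and 10 weeks old, and both sexes were used. All islets recovered overnight at 11.1 mM glucose in the same serum-containing medium before 48 h at 16.7 or 11.1 mM. Each of 8 experiment sets gave 1 library to each group, and sets carry the replicate numbers of the labels. The number of animals behind a set is not stated. Sets entered the fit as a block, so the p-values measure how much group differences vary from set to set, not between animals.

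Molecular chaperones bind proteins that have lost their fold or not yet reached it. In the cytosol, HSP70 proteins bind and release such chains in an ATP cycle that J-domain partners start and nucleotide exchange factors end, HSP90 finishes the folding of many signalling proteins, and small heat shock proteins hold unfolded chains until HSP70 takes them over. In the mitochondrial matrix, imported proteins fold inside the HSP60 ring under its HSP10 lid. When unfolded protein builds up in the cytosol, HSF1 forms trimers and binds heat shock elements, which are inverted repeats of GAA, in front of these genes. Human IAPP forms amyloid in islets and mouse IAPP does not, so the genotype comparison asks whether islets with human IAPP hold more RNA for these chaperones, and the glucose comparison asks the same of the higher glucose level.

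The libraries held 16.1 M to 43.7 M counts each. Iapp itself, which marks the genotype, averaged 10904 CPM (gene counts scaled to library size) in hIAPP and 24272 CPM in mIAPP islets at 16.7 mM glucose, and 6694 and 11944 CPM at 11.1 mM. Whether the counts in hIAPP islets came from human or mouse transcripts could not be worked out. The sources used here do not state whether human IAPP was in the reference. All 10 beta cell markers were detected in every group, and the islets also held other cell types, so the values are those of whole islets. In such bulk samples, fewer cells of a type and less RNA per cell cannot be told apart. The share of counts from the mitochondrial genome, which marks RNA composition, averaged 4.06 ± 1.63% for hIAPP and 11.3 ± 11.2% for mIAPP libraries (SD, n = 8 each) at 16.7 mM, and 16.6 ± 7.83% for hIAPP and 18.2 ± 11.6% for mIAPP libraries at 11.1 mM. Set 7 gave the mIAPP library at 16.7 mM that stood apart from its group at 37.0%, with 13.4% the next highest. Under 10% were all 8 hIAPP libraries at 16.7 mM, with 5, 2 and 3 of 8 in the other groups in the order above. Member calls that change in those 18 libraries are given both ways. In hIAPP islets the share ran from 2.68 to 6.76% at 16.7 mM and from 5.23 to 27.2% at 11.1 mM. These ranges overlap little, so the mitochondrial level and glucose cannot be cleanly told apart in hIAPP islets. Glucose changes given there with that level as a covariate carry this limit.

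The promoter windows of the genes were read for the elements that HSF1 and AP-1 bind, after the expression values had been seen. Windows from RefSeq on GRCm38.p6 ran from 250 bases before to 50 after a start site, and positions below are counted from the start site, with -1 just before it. A heat shock dimer was searched as GAANNTTC or TTCNNGAA, a trimer as 3 alternating units with NN between them (GAA, TTC, GAA or TTC, GAA, TTC), and an AP-1 element as TGANTCA, on both strands; a trimer holds 2 overlapping dimers. Over all 32851 windows, 15.1% held a dimer, 0.603% a trimer and 7.81% an AP-1 match. A match is a description of letters, not of binding. Only exact letters inside the windows were searched, so a window without a match is not shown to lack an element. Among the genes with a window, Bag3 was the one with an AP-1 match, at -20 to -14, and it had a heat shock dimer at 43 to 50, downstream of the start. A single AP-1 match among so few genes says little where 7.81% of all windows hold one. Its part in the expression of Bag3 was not tested. The dimer ends at the last base of the window, so a further unit after it could not be seen. The 2 stretches below lie on the + strand at chr7:128523333-128523582 and chr7:128523613-128523632, with the AP-1 match in capitals in the upstream stretch and the dimer in capitals in the other.
Bag3 upstream: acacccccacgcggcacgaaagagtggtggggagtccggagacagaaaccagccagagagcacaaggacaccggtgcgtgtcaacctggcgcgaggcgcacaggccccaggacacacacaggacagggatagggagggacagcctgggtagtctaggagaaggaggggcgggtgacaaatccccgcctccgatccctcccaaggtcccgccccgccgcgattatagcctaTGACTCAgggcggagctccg
Bag3 downstream: tggatgggaccaGAAGTTTC
The divergent genes Hspe1 and Hspd1 share a block of overlapping trimers, at -89 to -72 from Hspe1 and at -144 to -127 from an alternative start of Hspd1, while the window of its other start held none. It is shown in capitals on the + strand at chr1:55088053-55088082. Hsph1, on the - strand, held a trimer at 37 to 49 (chr5:149636287-149636306) and a dimer at -33 to -26 (chr5:149636356-149636375).
Hspe1 and Hspd1: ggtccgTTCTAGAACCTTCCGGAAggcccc
Hsph1 downstream: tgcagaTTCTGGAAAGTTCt
Hsph1 upstream: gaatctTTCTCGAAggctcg
Hspb1 held dimers at -117 to -110 and -97 to -90 (+ strand, chr5:135887769-135887848). Hspa1a and Hspa1b each held a dimer at -104 to -97, and their 300-base windows were identical at 296 bases, so the Hspa1b stretch is shown for both (- strand, chr17:34959239-34959488).
Hspb1: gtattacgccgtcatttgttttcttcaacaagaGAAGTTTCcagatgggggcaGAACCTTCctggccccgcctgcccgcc
Hspa1b: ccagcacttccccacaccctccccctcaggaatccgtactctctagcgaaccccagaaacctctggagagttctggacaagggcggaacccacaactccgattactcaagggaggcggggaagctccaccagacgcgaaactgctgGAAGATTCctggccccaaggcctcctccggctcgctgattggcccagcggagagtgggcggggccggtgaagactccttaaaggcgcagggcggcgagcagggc
Neither window of Dnajb1 held any of these letters, and windows of Hspa8 and Hsp90aa1 were not used here.

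Levels differed widely among the 10 genes. Per kb of merged exon and over all 32 libraries, Hspa8, the constitutive HSP70 (HSC70), stood highest at 209 ± 52.2 CPM per kb (SD), followed by Hsp90aa1, the inducible cytosolic HSP90, at 103 ± 31.5. The matrix chaperonin genes came next, with Hspd1 (HSP60) at 52.7 ± 10.2 and Hspe1 (HSP10) at 44.1 ± 5.85 CPM per kb. Below them stood the HSP70 cofactors: Bag3, a nucleotide exchange factor that joins HSP70 to small heat shock proteins, at 12.3 ± 4.37, Hsph1 (HSP105, another exchange factor) at 10.9 ± 3.22 and Dnajb1 (HSP40, a J-domain partner) at 8.05 ± 1.27. Hspb1, the small heat shock protein HSP25, stood at 3.82 ± 1.37, and the inducible HSP70 genes were lowest, Hspa1a at 2.25 ± 2.14 and Hspa1b at 2.07 ± 2.10 CPM per kb. Neighbours in this order that lay within 1 SD of each other were Hspd1 and Hspe1, Bag3 and Hsph1, Hsph1 and Dnajb1, Hspb1 and Hspa1a, and Hspa1a and Hspa1b. Hspa1a and Hspa1b share 63.8% and 67.6% of their 31-base words with each other, so the split of reads between them is uncertain and their sum is also given. Copies elsewhere in the genome share 43.5% of the words of Hspa8, 51.4% of Hsp90aa1, 52.3% of Hspb1, 50.1% of Hspd1 and 24.8% of Hspe1, which makes those levels uncertain too, whereas Bag3 and Hsph1 share none. Few counts were assigned to the copies sharing most words with Hspa8, Hsp90aa1, Hspb1 and Hspd1. Their highest group means were 0.92, 0.89, 0.071 and 0.12 CPM in that order.

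**Figure D1:**
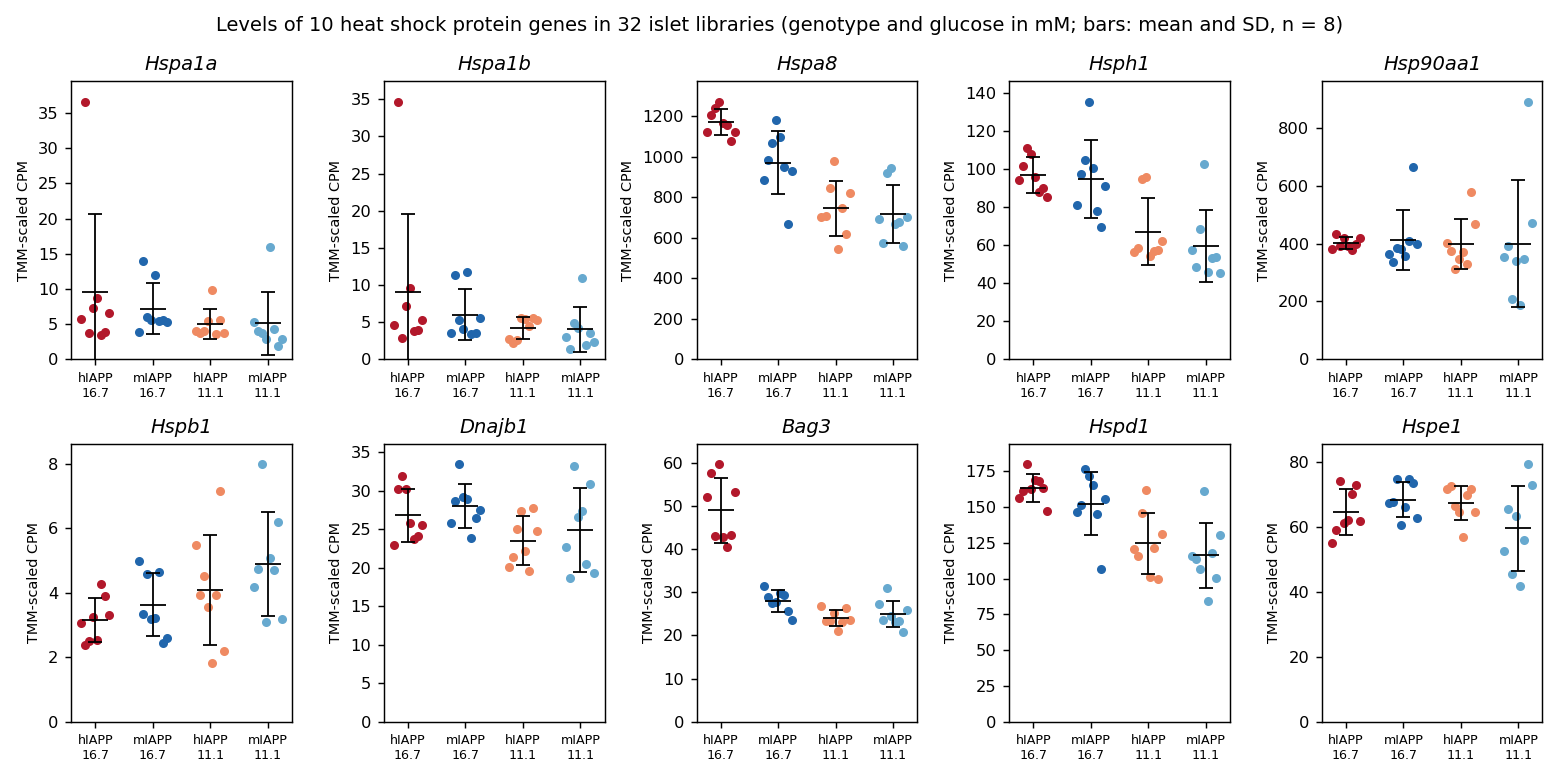
Levels of the 10 genes in TMM-scaled CPM in each of the 32 libraries, by genotype and glucose level in mM; points are libraries, and bars are the mean and SD of 8. Bag3 in hIAPP islets at 16.7 mM, at 40.4 CPM and above, stands clear of the other 3 groups, while Hspa1a and Hspa1b have their highest library, at 36.7 and 34.7 CPM, in hIAPP islets at 16.7 mM, and Hsp90aa1 has scattered high libraries.

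At 16.7 mM glucose, Bag3 and Hspa8 were higher in hIAPP than in mIAPP islets, and the other 8 genes did not pass the test. These 2 of 10 compare with 20.5% of all 16428 genes called in either direction, 9.27% as higher and 11.2% as lower, so the count of members is near that of genes at large. The median log2 fold change of the members was 0.08, against -0.0076 over all genes tested.

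Bag3 (ENSMUSG00000030847, GRCm38 chromosome 7, 128523616 to 128546981, + strand) was the clearest difference. Its level ran from 40.4 to 59.7 CPM in the hIAPP libraries, with a median of 47.8, and from 23.5 to 31.4 CPM in the mIAPP libraries, with a median of 28.3. Every hIAPP library was above every mIAPP library. The means were 49.1 ± 7.55 CPM in hIAPP and 28.0 ± 2.51 CPM in mIAPP islets (SD, n = 8 each), a 1.74-fold difference (log2 0.80 ± 0.09, SE, adjusted p = 2.26e-07 in edgeR's quasi-likelihood test). Within sets the log2 difference was 0.45 to 1.17 and higher in 8 of 8. In the libraries under 10% mitochondrial counts it was 0.81 (adjusted p = 0.00143), and with the mitochondrial level as a covariate 0.73 (adjusted p = 2.38e-05).

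Hspa8 (ENSMUSG00000015656, chromosome 9, 40800984 to 40810087, + strand) differed less. Its lowest, median and highest libraries stood at 1075, 1162 and 1272 CPM in hIAPP islets, against 668.7, 964.3 and 1182 CPM in mIAPP islets. The groups overlapped, yet the hIAPP library was the higher in 8 of 8 sets. The means were 1171 ± 65.9 CPM in hIAPP and 969.3 ± 156 CPM in mIAPP islets, 1.22-fold (log2 0.29 ± 0.09, adjusted p = 0.0204). The call was lost without the set as a block (0.27, adjusted p = 0.141), without the mIAPP library of set 7 (0.25, adjusted p = 0.0607), and without set 1, 6 or 7 (0.28, 0.29 and 0.24, adjusted p = 0.0726, 0.0602 and 0.0815). It was also lost in the libraries under 10% mitochondrial counts (0.22, adjusted p = 0.230) and with the mitochondrial level as a covariate (0.09, adjusted p = 0.697), and the mitochondrial share of the hIAPP libraries was the lower of the groups.

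The remaining genes of the HSP70 and HSP90 machinery did not pass at 16.7 mM, which does not show equal levels, so the interval of each difference is given. Hsph1 averaged 96.8 ± 9.39 CPM in hIAPP and 94.8 ± 20.4 CPM in mIAPP islets, with a 95% interval of the log2 difference from -0.14 to 0.24. Hsp90aa1 averaged 402.4 ± 19.9 CPM and 413.1 ± 105 CPM in the same order, and its interval ran from -0.29 to 0.32. For Dnajb1, at 26.8 ± 3.44 CPM in hIAPP and 28.0 ± 2.84 CPM in mIAPP islets, it ran from -0.24 to 0.12. These intervals leave out a difference as large as that of Bag3. Hspb1 stood at 3.15 ± 0.68 CPM in hIAPP and 3.62 ± 0.98 CPM in mIAPP islets, with a wider interval from -0.60 to 0.23. The chaperonin pair did not separate either: Hspd1 averaged 163.3 ± 9.57 CPM in hIAPP and 152.2 ± 21.9 CPM in mIAPP islets (interval -0.07 to 0.30), and Hspe1 averaged 64.7 ± 6.96 and 68.5 ± 5.43 CPM (interval -0.27 to 0.10). Hspe1 was the lower in hIAPP islets in 7 of 8 sets, and Hspd1 the higher in 6 of 8.

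The inducible HSP70 genes, which respond steeply to heat shock, had their group values set by few libraries. Hspa1a and Hspa1b together stood at 6.50, 11.1 and 71.3 CPM (lowest, median and highest library) in hIAPP islets at 16.7 mM, against 7.34, 10.2 and 25.2 CPM in mIAPP islets. The value of 71.3 CPM came from set 2, whose mIAPP library held the 25.2 CPM, and the other 7 hIAPP libraries reached at most 18.3 CPM. The summed log2 difference was 0.28 ± 0.32 (SE, adjusted p = 0.546) with all sets and -0.04 (adjusted p = 0.899) without set 2. Singly, the log2 difference was 0.19 for Hspa1a, with a 95% interval from -0.46 to 0.84, and 0.40 for Hspa1b, with an interval from -0.39 to 1.18. A difference of the size seen for Bag3 lies within these intervals. Without set 2 that of Hspa1a was -0.12.

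**Figure D2:**
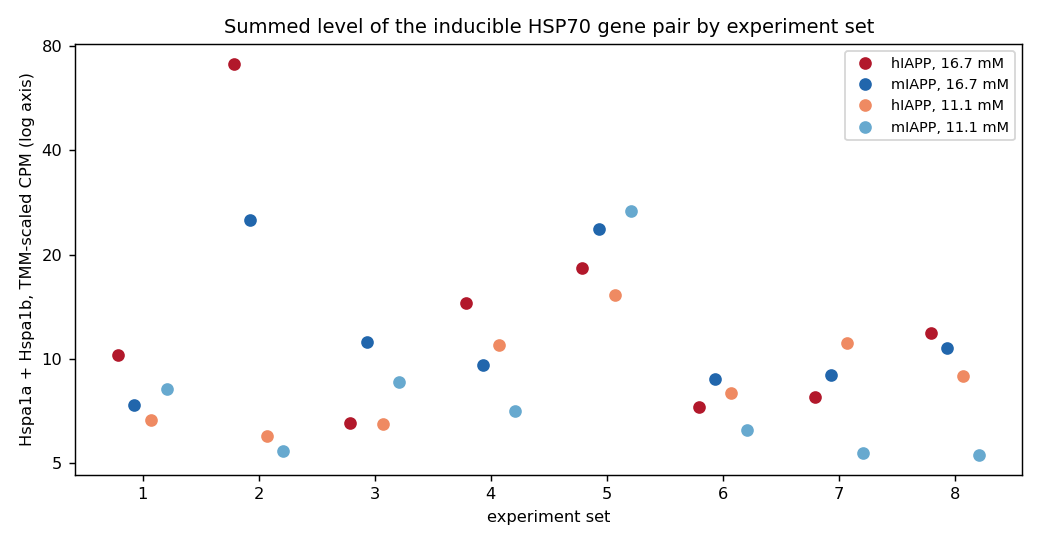
Summed level of Hspa1a and Hspa1b in TMM-scaled CPM (log axis) by experiment set, with 1 point for each of the 4 libraries of a set. Set 2 holds the highest library, hIAPP at 16.7 mM with 71.3 CPM, and all 4 libraries of set 5 lie at 15.2 CPM or more, with the mIAPP library at 11.1 mM the highest of them at 26.8 CPM.

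At 11.1 mM glucose, 0 of the 10 genes passed the test between genotypes in edgeR, as in DESeq2 and in limma voom, and Hspe1 alone had an unadjusted p under 0.05 (0.0493). Over all genes 0.128% passed, 0.11% as higher and 0.0183% as lower, so few calls were to be had. Bag3, which differed at 16.7 mM, ran from 20.9 to 26.8 CPM in hIAPP and from 20.9 to 31.1 CPM in mIAPP islets. These ranges overlapped almost wholly. Its means were 24.1 ± 1.89 and 25.0 ± 3.11 CPM in that order, and the log2 difference was -0.05 with a 95% interval from -0.23 to 0.13. The difference was 0.06 for Hspa8 (-0.12 to 0.24), 0.18 for Hsph1 (-0.01 to 0.37), 0.10 for Hspd1 (-0.09 to 0.29) and 0.19 for Hspe1 (-0.0017 to 0.38). Intervals were built from the SE and the 21 residual degrees of freedom, which are not those of the test. The interval of Hspe1 therefore includes 0 beside its unadjusted p of 0.0493. The intervals of Hspa1a and Hspa1b were wide, -0.56 to 0.77 and -0.63 to 1.00. The highest libraries of the summed pair came from set 5, at 15.2 CPM in hIAPP and 26.8 CPM in mIAPP islets.

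Bag3 was also the 1 member whose genotype difference changed with glucose, where 3.12% of all genes were called for the interaction, 2.17% as positive and 0.95% as negative. The difference at 16.7 mM exceeded that at 11.1 mM by 0.85 ± 0.12 (log2, SE, adjusted p = 0.000131), in 8 of 8 sets, and Bag3 ranked 19 of 16428 genes by p. It stayed between 0.79 and 0.93 when each set was left out. In the libraries under 10% mitochondrial counts, where 2 hIAPP and 3 mIAPP libraries at 11.1 mM remain, it was 0.96 and did not pass (adjusted p = 0.103). The interaction of Hspa8 was 0.23 ± 0.12 (adjusted p = 0.323), with a 95% interval from -0.03 to 0.48, and that of Hspe1 was -0.27 ± 0.13 (adjusted p = 0.256). For the other 7 genes it lay between -0.13 and 0.21.

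The higher glucose level raised Hspa8, Hsph1 and Hspd1 in both genotypes and Bag3 in hIAPP islets. That made 4 of 10 members higher and 0 lower in hIAPP islets, where 65.5% of all genes were called, 32.2% as higher and 33.3% as lower. In mIAPP islets 3 of 10 were higher and 0 lower, where 47.5% of all genes were called, 24.9% as higher and 22.7% as lower. The median log2 change of the members was 0.49 in hIAPP and 0.30 in mIAPP islets, against -0.02 and -0.03 over all genes. Each genotype has its own islets at both glucose levels, so these 2 comparisons share no library.

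For Hspa8 the lowest, median and highest libraries were 1075, 1162 and 1272 CPM at 16.7 mM and 545.5, 726.0 and 980.6 CPM at 11.1 mM in hIAPP islets. Here every library at 16.7 mM lay above every library at 11.1 mM. The log2 change was 0.67 ± 0.09 in hIAPP (1.59-fold, adjusted p = 3.28e-07) and 0.44 ± 0.09 in mIAPP islets (1.36-fold, adjusted p = 0.000166), higher in 8 of 8 sets in each, and in mIAPP islets the ranges overlapped, at 668.7 to 1182 CPM against 560.5 to 943.0 CPM. With the mitochondrial level as a covariate it was 0.32 in hIAPP and 0.29 in mIAPP islets.

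Hsph1, which reloads HSP70 with ATP, averaged 96.8 ± 9.39 CPM at 16.7 mM and 67.03 ± 17.7 CPM at 11.1 mM in hIAPP islets, and 94.8 ± 20.4 CPM and 59.4 ± 19.0 CPM in mIAPP islets. Its ranges overlapped between glucose levels in both genotypes, and sets 3 and 4 held the highest libraries of every group, yet it was higher at 16.7 mM in 8 of 8 sets of each. The log2 change was 0.57 ± 0.09 (adjusted p = 9.04e-06) for hIAPP and 0.69 ± 0.09 (adjusted p = 1.30e-06) for mIAPP islets. In hIAPP islets it did not pass with the mitochondrial level as a covariate (0.25, adjusted p = 0.175) or in the libraries under 10% mitochondrial counts (0.36, adjusted p = 0.194).

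Hspd1 behaved likewise, with 163.3 ± 9.57 CPM at 16.7 mM and 124.7 ± 21.2 CPM at 11.1 mM in hIAPP islets, and 152.2 ± 21.9 and 116.3 ± 22.6 CPM in mIAPP islets. Its log2 change was 0.41 ± 0.09 (adjusted p = 0.000312) and 0.39 ± 0.09 (adjusted p = 0.000897) in that order, higher in 8 of 8 sets of each. In hIAPP islets it too did not pass with the mitochondrial level as a covariate (0.30, adjusted p = 0.138) or under 10% mitochondrial counts (0.28, adjusted p = 0.285). Its partner Hspe1, transcribed from the opposite strand of the shared promoter region printed above, did not pass the test with all libraries. Hspe1 had a log2 change of -0.06 ± 0.09 (adjusted p = 0.578) for hIAPP islets and 0.21 ± 0.09 (adjusted p = 0.0558) for mIAPP islets, at 68.5 ± 5.43 CPM against 59.6 ± 13.1 CPM. The mIAPP value passed without set 7 (0.23, adjusted p = 0.0480), without set 8 (0.26, adjusted p = 0.0360), without the mIAPP library of set 7 alone (0.23, adjusted p = 0.0452) and under 10% mitochondrial counts (0.49, adjusted p = 0.0224). Under 10%, the 3 mIAPP libraries left at 11.1 mM, of sets 3, 4 and 5, stood at 45.4, 63.3 and 41.9 CPM. Those of sets 3 and 5 held the lowest Hspe1 levels of all 32 libraries. The mIAPP value passed as well with the mitochondrial level as a covariate (0.32, adjusted p = 0.0125), in limma voom (0.23, adjusted p = 0.0346) and without the filter on low counts (0.24, adjusted p = 0.0492). The difference between the changes of Hspd1 and Hspe1 was not tested.

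**Figure D3:**
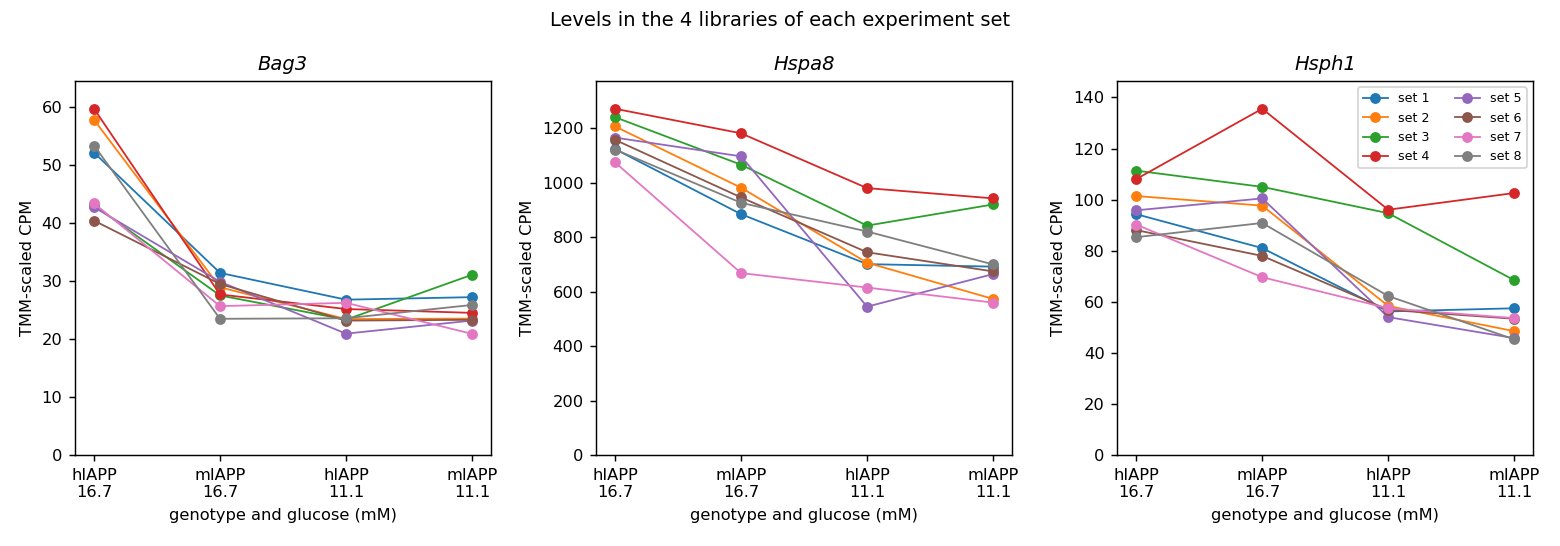
Levels of Bag3, Hspa8 and Hsph1 in TMM-scaled CPM in the 4 libraries of each experiment set; lines join libraries of a set across genotype and glucose level in mM. All 8 Bag3 lines start at 40.4 CPM or more in hIAPP islets at 16.7 mM and stay at 31.4 CPM or less in the other groups, Hspa8 steps down through the groups in most sets, and Hsph1 is highest in set 4 in 3 of the 4 groups.

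Bag3 rose with glucose in hIAPP islets. It ran from 40.4 to 59.7 CPM at 16.7 mM and from 20.9 to 26.8 CPM at 11.1 mM, with no overlap, a log2 change of 1.02 ± 0.09 (2.03-fold, adjusted p = 2.70e-10). In mIAPP islets the ranges were 23.5 to 31.4 CPM and 20.9 to 31.1 CPM, and the change of 0.17 ± 0.09 did not pass (adjusted p = 0.107), with 0.22 and an adjusted p of 0.0441 when set 3 was left out. Dnajb1 had a change of 0.19 ± 0.09 (adjusted p = 0.0504) for hIAPP and 0.18 ± 0.09 (adjusted p = 0.0821) for mIAPP islets, higher in 7 of 8 sets of each. Both values passed without set 7 (0.24 and 0.21, adjusted p = 0.0145 and 0.0308) and without its mIAPP library at 16.7 mM alone (0.20 and 0.22, adjusted p = 0.0443 and 0.0450). The hIAPP value also passed in limma voom (0.20, adjusted p = 0.0372) and in DESeq2 (0.19, adjusted p = 0.0491). Hspb1 pointed down, at 3.15 ± 0.68 CPM against 4.08 ± 1.71 CPM in hIAPP and 3.62 ± 0.98 CPM against 4.90 ± 1.61 CPM in mIAPP islets, and neither change passed (-0.30 and -0.41, adjusted p = 0.190 and 0.0903). The summed Hspa1a and Hspa1b had a change of 0.63 ± 0.33 in hIAPP islets (adjusted p = 0.0991), which was 0.16 without set 2 (adjusted p = 0.465), and of 0.49 ± 0.33 (adjusted p = 0.221) for mIAPP islets.

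**Figure D4:**
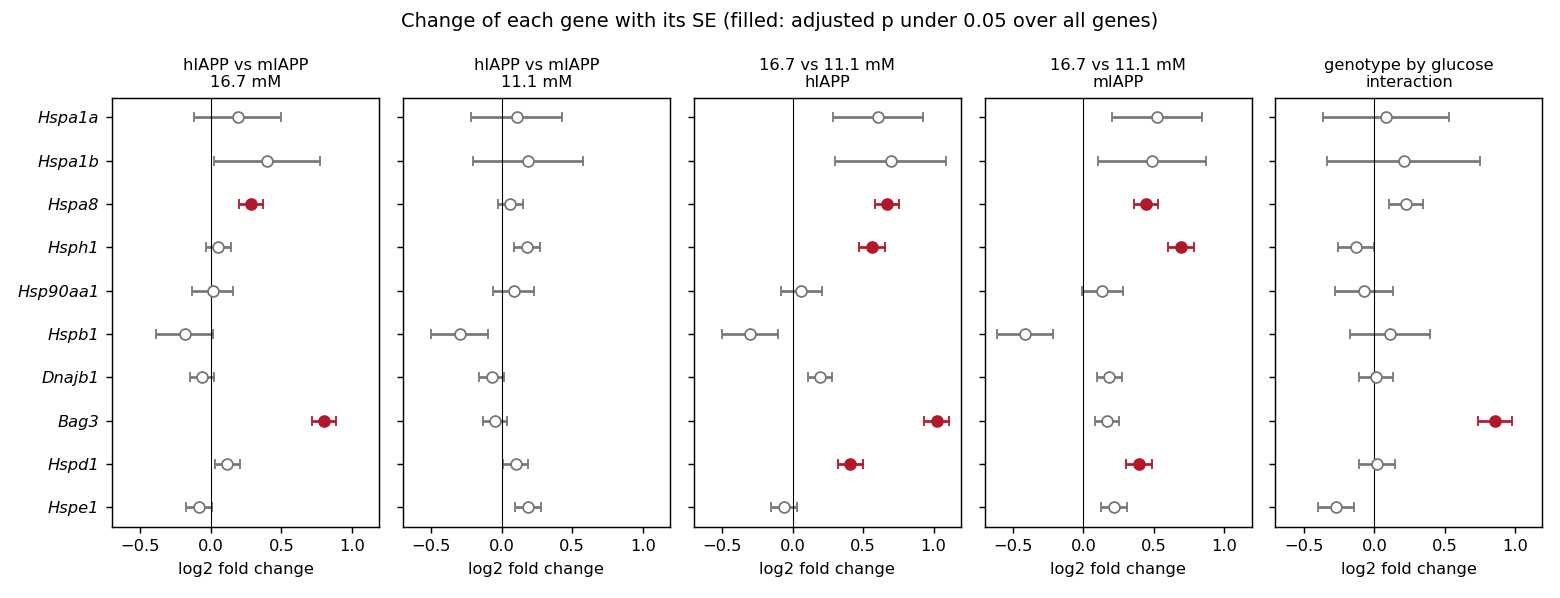
Log2 fold change of each gene with its SE in the 5 comparisons; filled points had an adjusted p under 0.05 over all 16428 genes in edgeR. Bag3 stands out in the genotype comparison at 16.7 mM (0.80), in the glucose comparison of hIAPP islets (1.02) and in the interaction (0.85), while Hspa8, Hsph1 and Hspd1 changed with glucose in both genotypes. The comparisons in which Bag3 stands out share the hIAPP libraries at 16.7 mM, so they are not independent.

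The glucose change of Hsp90aa1 did not pass the test in either genotype with all libraries. It did so in mIAPP islets among the libraries under 10% mitochondrial counts (0.65, adjusted p = 0.00813). There the 3 mIAPP libraries left at 11.1 mM, of sets 3, 4 and 5, stood at 207.2, 338.5 and 186.8 CPM. Those of sets 3 and 5 were the lowest of all 32 libraries. With all libraries, Hsp90aa1 averaged 402.4 ± 19.9 CPM at 16.7 mM and 398.4 ± 87.8 CPM at 11.1 mM in hIAPP islets, and 413.1 ± 105 and 399.2 ± 220 CPM in mIAPP islets. The highest libraries were all from set 7, at 892.97 CPM in mIAPP islets at 11.1 mM, 667.7 CPM in mIAPP islets at 16.7 mM and 580.1 CPM in hIAPP islets at 11.1 mM, and these held 34.7, 37.0 and 27.2% mitochondrial counts. With groups and sets in the fit, Hsp90aa1 rose by 0.26 ± 0.08 on the log2 scale for each doubling of the mitochondrial level (adjusted p = 0.00916), whereas 3 members fell: Hspa8 by 0.17 ± 0.04 (adjusted p = 0.00177), Hsph1 by 0.15 ± 0.05 (adjusted p = 0.0160) and Hspa1b by 0.62 ± 0.22 (adjusted p = 0.0280). Among all genes 40.1% were called in this fit, 18.2% as higher and 21.9% as lower. Calls were lost for Hsp90aa1 without set 3 (0.21, adjusted p = 0.0901), for Hsph1 without set 2 or 4 (-0.14 and -0.11, adjusted p = 0.0728 and 0.0677) and for Hspa1b without set 2, 3 or 5 (-0.33, -0.63 and -0.60, adjusted p = 0.0640, 0.0662 and 0.0793). The coefficient of Bag3 was -0.06 ± 0.05 (adjusted p = 0.348). With this covariate the glucose change of Hsp90aa1 was 0.60 (adjusted p = 0.0316) for hIAPP and 0.38 (adjusted p = 0.0363) for mIAPP islets, against 0.06 and 0.13 without it. The mitochondrial shares of hIAPP islets overlapped little between glucose levels, so the value of 0.60 cannot be cleanly separated from the mitochondrial level. The glucose change of Hspb1 in mIAPP islets was -0.61 with the covariate (adjusted p = 0.0278).

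**Figure D5:**
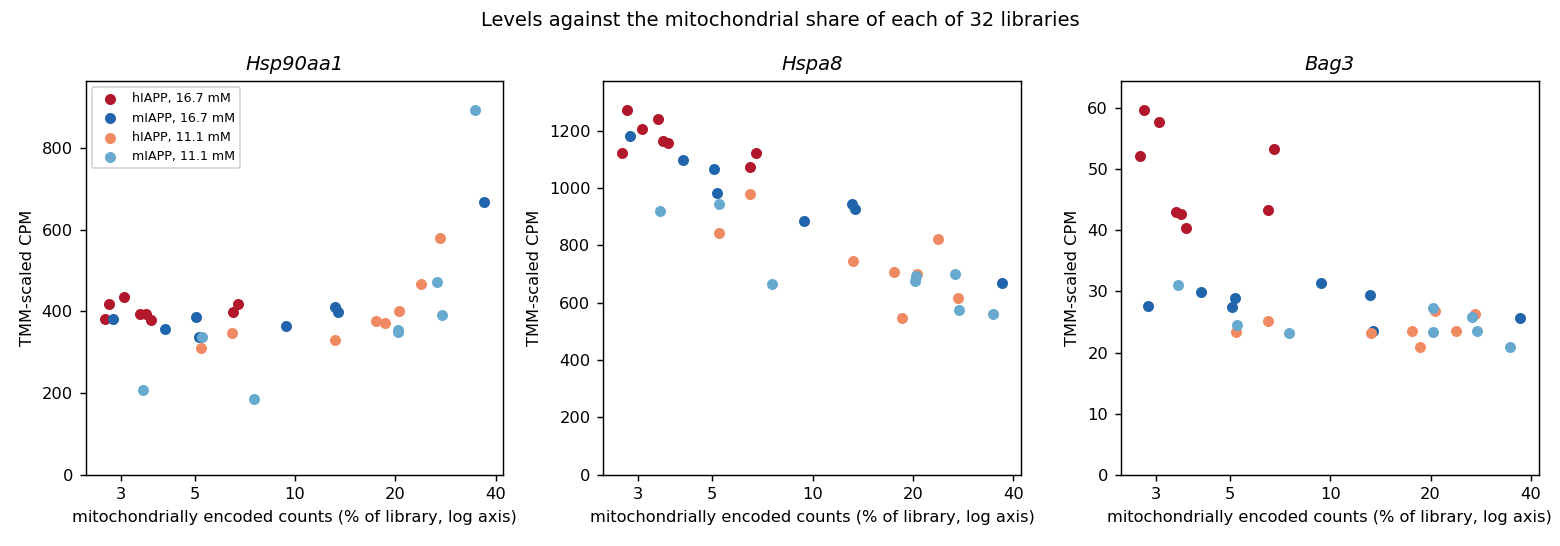
Levels of Hsp90aa1, Hspa8 and Bag3 in TMM-scaled CPM against the share of mitochondrially encoded counts in each of 32 libraries (log axis), coloured by group. The 3 highest Hsp90aa1 libraries hold 27.2 to 37.0%, Hspa8 is lower where the share is higher, and Bag3 lies at 40.4 CPM or more in hIAPP libraries at 16.7 mM and at 31.4 CPM or less in the other groups.

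Experiment sets moved 7 of the 10 genes, where 50.4% of all genes differed among sets (edgeR, 8274 genes). The smallest adjusted p was that of Hsph1 (0.000453), followed by Hspa1a (0.00394), Hsp90aa1 (0.00505), Hspa8 (0.00591), Dnajb1 (0.0180), Hspd1 (0.0386) and Hspa1b (0.0452). Bag3 (0.462), Hspe1 (0.241) and Hspb1 (0.122) did not pass. The count of members was 3 when set 4 or set 7 was left out, and the count of genes 5448 and 2495.

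After group and set means were removed, pairs of members were compared by Pearson's r over the 32 libraries, as a description of points that share library, depth and RNA composition. The highest r was 0.77, for Hspa1b and Dnajb1, followed by 0.75 for Hspa1a and Hspa1b, which share reads. Other pairs of HSP70 genes and Dnajb1 were lower, at 0.49 for Hspa1b and Hspa8, 0.44 for Hspa1a and Dnajb1, 0.37 for Hspa8 and Dnajb1 and 0.12 for Hspa1a and Hspa8. Hsph1 had an r of 0.67 with Hspd1 and 0.65 with Hspa8, and Hsp90aa1 had 0.65 with Hspe1. Hspd1 and Hspe1 had 0.58, and the lowest value was -0.61, for Hspa1a and Hspe1. Bag3 was nearest to Hspa1a (0.54) and Hspa1b (0.51). Among 13064 genes, the 5 most like Hspa8 were Atp5b (0.91), a subunit of ATP synthase, Atp5a1 (0.90), Slc25a5 (0.90), Psmd12 (0.90) and Armcx2 (0.90). The 5 most like Hspd1 were Ppp3cb (0.93), Naa30 (0.92), Vamp4 (0.92), Gpbp1 (0.91) and Ube2d3 (0.91).

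The other chaperones of the cytosol split in the genotype comparison at 16.7 mM. Of 36 tested, 2 were higher in hIAPP islets and 4 lower, with a median log2 change of -0.0037 against -0.0076 over all genes. Stip1, the co-chaperone HOP that hands clients from HSP70 to HSP90, averaged 75.2 CPM in hIAPP and 62.8 CPM in mIAPP islets (0.29, adjusted p = 0.0424), and the HSP110 gene Hspa4 had a change of 0.25. The 4 that fell were Hspa1l (-0.47, adjusted p = 0.0337), which shares words with Hspa1a and Hspa1b, Hspb6, a small heat shock protein (-0.45, adjusted p = 0.00821), Tomm34 (-0.31, adjusted p = 0.0106) and Fkbp4 (-0.22, adjusted p = 0.0304), both HSP90 partners. With glucose 14 rose and 7 fell in hIAPP islets (median 0.15), and 17 rose and 7 fell in mIAPP islets (median 0.23). Over all genes, 32.2% rose and 33.3% fell in hIAPP islets, and 24.9% rose and 22.7% fell in mIAPP islets. By genotype at 16.7 mM, 9.27% of all genes were higher and 11.2% lower. The counts of this list and of those below are to be read beside these shares. Hspa13, an HSP70-like protein of microsomes, was counted in this list although it is not a cytosolic protein, and it had the largest change. In hIAPP islets it stood at 178.9 CPM at 16.7 mM against 51.3 CPM at 11.1 mM (1.94 ± 0.20). In mIAPP islets it stood at 152.6 against 44.1 CPM (1.86 ± 0.20). Hspb8, the small heat shock protein that BAG3 holds, changed by 1.07 ± 0.13 in hIAPP and 0.50 ± 0.13 in mIAPP islets, and its interaction of 0.57 ± 0.18 did not pass (adjusted p = 0.0791). Hspa4l, of the HSP110 family, changed by 0.83 and 0.69, and Tomm34 by -0.76 and -0.63. Of 36 genes, 0 were called for the interaction in edgeR.

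No heat shock factor gene was called higher in any of the 5 comparisons. Hsf1 averaged 28.0 CPM in hIAPP and 30.6 CPM in mIAPP islets at 16.7 mM (log2 -0.13 ± 0.12, adjusted p = 0.443), and its RNA fell with glucose by 0.42 in each genotype (adjusted p = 0.00313 and 0.00542). Hsf4 averaged 5.10 CPM in hIAPP and 8.62 CPM in mIAPP islets at 16.7 mM (-0.70 ± 0.16, adjusted p = 0.00355), and changed with glucose by -1.50 and -0.84. Of the 6 factors and regulators tested, 0 rose and 1 fell by genotype at 16.7 mM. With glucose 1 rose and 3 fell in hIAPP islets, and 1 rose and 2 fell in mIAPP islets. The gene that rose was Hsbp1 (0.26 and 0.20), known as a binding partner of HSF1.

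The TRiC chaperonin folds actin and tubulin, and prefoldin delivers them to it. Of 13 tested genes, 4 TRiC subunits were higher in hIAPP islets at 16.7 mM and 0 genes were lower (median 0.08). These were Cct2 (0.33, adjusted p = 0.0211), Cct8 (0.25, adjusted p = 0.0252), Cct7 (0.21, adjusted p = 0.0348) and Tcp1 (0.20, adjusted p = 0.0341). Glucose raised 6 and lowered 4 in hIAPP islets (median 0.24), the 4 being prefoldin subunits such as Pfdn5 (-1.13 ± 0.18), and raised 6 and lowered 2 in mIAPP islets (median 0.15). Of 19 other mitochondrial chaperones and proteases, 3 were higher in hIAPP islets at 16.7 mM, Yme1l1 (0.37), Clpx (0.35) and Trap1 (0.18), the matrix HSP90, and 1 was lower, the protease subunit Clpp (-0.52, adjusted p = 0.0352), against a list median of 0.06. With glucose 9 rose and 4 fell in hIAPP islets (median 0.15), and 7 rose and 4 fell in mIAPP islets (median 0.14). For both lists the shares over all genes were 65.5% called with glucose in hIAPP and 47.5% in mIAPP islets. In neither list was a gene called for the interaction in edgeR.

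Chaperones of the endoplasmic reticulum changed far more with glucose. All 16 tested rose in each genotype, with a median log2 change of 1.50 in hIAPP and 1.42 in mIAPP islets, against 0.49 and 0.30 for the 10 heat shock genes. Examples are Sdf2l1, at 313.9 CPM at 16.7 mM against 69.5 CPM at 11.1 mM in hIAPP islets (2.18 ± 0.12) and 286.6 against 72.5 CPM in mIAPP islets (2.01 ± 0.12), and Manf (1.41 and 1.38). By genotype at 16.7 mM 2 were higher, P4hb (0.35, adjusted p = 0.0366) and Pdia6 (0.33, adjusted p = 0.0410), and 0 were called for the interaction.

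Immediate early genes, which cells induce within minutes of a stimulus or of handling, were called in all 3 comparisons that called Bag3 and in the other 2 as well. Those 3 comparisons share the hIAPP libraries at 16.7 mM, so they are not independent. Of 18 tested, 12 were higher in hIAPP islets at 16.7 mM and 0 lower (median 0.74), and 1 of 18 was higher at 11.1 mM. With glucose 14 rose and 1 fell in hIAPP islets, and 9 rose and 2 fell in mIAPP islets, where Bag3 did not pass. For the interaction 7 were positive and 1 negative. Jun, a subunit of AP-1, averaged 85.2 CPM in hIAPP and 31.3 CPM in mIAPP islets at 16.7 mM, and 35.5 and 28.8 CPM at 11.1 mM, with an interaction of 1.22 ± 0.16 (adjusted p = 3.96e-05). Atf3, at 11.7 against 3.91 CPM and 4.77 against 4.58 CPM in the same order, had an interaction of 1.45 ± 0.24, and Fosl2 had 1.02 ± 0.21. The negative one was Nr4a1, a nuclear receptor, at -1.11 ± 0.26 (adjusted p = 0.0148). The whole list summed to 746.9 ± 132 CPM in hIAPP islets at 16.7 mM, 454.1 ± 58.8 CPM in mIAPP islets at 16.7 mM, 379.6 ± 67.1 CPM in hIAPP islets at 11.1 mM and 354.2 ± 38.1 CPM in mIAPP islets at 11.1 mM. Its part in the Bag3 result was not tested.

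Markers of cell types moved with the groups as well. In the genotype comparison at 16.7 mM, 7 of 10 beta cell markers were lower in hIAPP islets. Iapp itself, which the knock-in alters, is 1 of these 7 (-1.14) and enters the sum. The sum of the list ranged from 146176 to 210399 CPM in hIAPP and 188161 to 273534 CPM in mIAPP islets. Endothelial markers were lower for 8 of 10, summing to 22.6 to 67.5 CPM in hIAPP and 45.8 to 156.0 CPM in mIAPP islets, and ductal markers were higher for 3 of 7 tested, summing to 1049 to 1876 CPM and 825.1 to 1267 CPM. The other lists had 0 higher and 1 lower of 7 for alpha cells, 0 called of 6 for delta and PP cells and of 10 for acinar cells, 1 lower of 9 for stellate cells and fibroblasts, 2 higher and 1 lower of 11 for macrophages, 1 higher and 2 lower of 6 for lymphocytes and neutrophils and 1 lower of 6 for Schwann cells and glia. Y-linked genes, which mark the mix of sexes, had 1 higher of 4 and summed to 26.2 to 176.0 CPM in hIAPP and 8.15 to 178.2 CPM in mIAPP islets. In the beta cell, endothelial and ductal lists, 0 genes were at 0 in a whole group. With glucose the endothelial markers fell for 10 of 10 in hIAPP (median log2 -1.52) and 7 of 10 in mIAPP islets (-0.70). Macrophage markers fell for 7 of 11 in hIAPP (-1.18) and 8 of 11 in mIAPP islets (-0.89), and those of stellate cells and fibroblasts for 7 of 9 (-0.65) and 3 of 9 (-0.46). Of 10 beta cell markers, 8 fell and 2 rose in hIAPP islets (-0.55), and 4 fell and 2 rose in mIAPP islets (-0.13). Ductal markers rose for 5 and fell for 1 of 7 in hIAPP islets (0.79), and rose for 4 of 7 in mIAPP islets (0.33). Lymphocyte and neutrophil markers fell for 4 and rose for 1 of 6 in hIAPP islets, and fell for 3 of 6 in mIAPP islets. Alpha cell markers rose for 1 and fell for 1 of 7 in hIAPP islets, and rose for 1 and fell for 2 in mIAPP islets. In the same order, delta and PP cell markers rose for 2 and fell for 2 of 6, and fell for 2. Acinar markers rose for 1 and fell for 1 of 10, and fell for 1. Schwann and glial markers fell for 2 of 6, and rose for 1 and fell for 2. The part of cell composition in the genotype results of Bag3 and Hspa8 and in the glucose results of Hspa8, Hsph1, Hspd1 and Bag3 was not tested.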

How the data were processed

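The deposited table holds expected counts per gene, estimated by the authors and given as whole numbers; bcl2fastq 1.8.4, kallisto 0.45.0 and GRCm38 are named per the submitters' processing notes, and how transcripts were summed and rounded, and whether human IAPP was in the reference, is not stated in the sources used here. The 32 libraries (16.1 M to 43.7 M counts) were assigned from their labels, and 0 columns had no sample. Levels are CPM, gene counts divided by the TMM-scaled library size, and CPM per kb uses merged exons of GENCODE M21.

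Counts were fitted in edgeR 4.0.16 under R 4.3.3 (TMM, filterByExpr by group, glmQLFit with robust estimation, glmQLFTest). All 32 libraries entered 1 fit with the 4 groups and the experiment set as a block, leaving 21 residual degrees of freedom. P-values were adjusted by Benjamini-Hochberg over all 16428 genes of a comparison, with 0.05 as the threshold and no minimum fold. The labels say that each of 8 sets held all groups; after group means were removed, same-set libraries had a mean r of 0.15 to 0.32 across genes. The tests of sets and of the mitochondrial level (log2 ratio of mitochondrial to other counts, beside groups and set) were added after seeing the data. Within-set differences used a pseudocount of 0.5 CPM. Likeness used log2 CPM with a prior count of 2 and genes of at least 1 CPM. DESeq2 1.42.0 and limma voom 3.58.1 were alternatives.

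The members and gene lists were chosen with earlier results of these data known. All 10 members were named, and from each list up to 4 genes with the smallest p in the genotype comparison at 16.7 mM or the glucose comparison in hIAPP islets; Stip1 and Hspa4 were named after their values were seen. Cct6a was not matched in the table.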

Additional observations from a re-analysis of the deposited data

Results flagged for a closer look

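In 40 groups of 8 libraries (10 genes in 4 groups), 4 held a library that stood apart by Dixon's 95% criterion, where chance flags about 2. Hspa1a stood at 36.7 CPM in the hIAPP library of set 2 at 16.7 mM, with 8.65 CPM the next, and at 9.86 CPM in the hIAPP library of set 5 at 11.1 mM, with 5.51 CPM the next. In the mIAPP library of set 7 at 16.7 mM, which held 37.0% mitochondrial counts, Hsp90aa1 stood at 667.7 CPM, with 410.5 CPM the next, and Hspd1 at 106.3 CPM, with 144.7 CPM the next. The genotype difference of Bag3 was larger at 16.7 mM than at 11.1 mM by 0.85 on the log2 scale, by the interaction test.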

How the results depend on the processing

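Of 1070 values recomputed under an alternative, 979 kept their direction and their side of the threshold, 18 lost the call, 22 gained it and 51 changed sign; all that changed sign had not passed the threshold. Bag3 kept its call by genotype at 16.7 mM and with glucose in hIAPP islets under every alternative run. Without the replicate block, 1301 genes were called by genotype at 16.7 mM and 196 for the interaction, against 3371 and 513, and 1 member by genotype at 16.7 mM (Bag3); of the genes called for the interaction, 84.2% were positive, against 69.6% with the block and 53.7% in limma voom. Hspa1b then passed with glucose in hIAPP islets (1.11), as did the summed pair (1.02), and the genotype difference was -0.038 for Hsp90aa1 at 16.7 mM, and -0.046 for Hspa1a and -0.0026 for Hsp90aa1 at 11.1 mM. The block changed no other member's call.

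With the mitochondrial level as a covariate, 861 genes were called by genotype at 16.7 mM, 3606 with glucose in hIAPP islets and 296 for the interaction, with 1 member by genotype at 16.7 mM and 6 with glucose in mIAPP islets. The values that changed sign there were, by genotype at 16.7 mM, Hspa1a (-0.083), Hspa1b (-0.35), Hsph1 (-0.12), Hspe1 (0.041) and the summed pair (-0.20); with glucose in hIAPP islets, Hspa1b (-0.56), Hspe1 (0.17) and the summed pair (-0.17); and for the interaction, Hspa1a (-0.19), Hspa1b (-0.61), Hsp90aa1 (0.22), Hspb1 (-0.15), Dnajb1 (-0.10), Hspd1 (-0.041) and the summed pair (-0.37). In the 18 libraries under 10% mitochondrial counts, 1133 genes were called by genotype at 16.7 mM, 10 at 11.1 mM, 3881 with glucose in hIAPP islets, 5181 with it in mIAPP islets and 7 for the interaction, with 1, 2, 5 and 0 members at 16.7 mM, in hIAPP islets, in mIAPP islets and for the interaction. Here Hspa1b (-0.24) and the summed pair (-0.064) by genotype at 11.1 mM, Hspe1 with glucose in hIAPP islets (0.049), Hspa1b (-0.12) and the summed pair (-0.0046) with glucose in mIAPP islets, and the interaction of Hspb1 (-0.030) and Hspd1 (-0.30) changed sign; fewer samples enter this fit. With the set 7 mIAPP library at 16.7 mM left out, 2108 genes and 1 member were called by genotype at 16.7 mM, 5 members with glucose in mIAPP islets, and the interaction was -0.02 for Dnajb1 and -0.03 for Hspd1. In limma voom 946 and in DESeq2 959 genes were called for the interaction, DESeq2 called 35 by genotype at 11.1 mM, and voom gave -0.0065 for Hsp90aa1 at 16.7 mM and -0.0065 for Hspa1a at 11.1 mM. With the compared groups alone in the fit, Hsp90aa1 was -0.024 by genotype at 16.7 mM. The cause of these changes was not tested.

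Leaving out each set in turn gave 1623 to 3841 genes and 1 to 2 members by genotype at 16.7 mM (1623 without set 1, 2215 without set 2, 1852 without set 6, 1943 without set 7), 3 to 5 members with glucose in mIAPP islets, and 239 to 558 genes for the interaction (239, 310, 280 and 337 without sets 1, 2, 6 and 8). The ranges that crossed 0 were, by genotype at 16.7 mM, -0.12 to 0.31 for Hspa1a, -0.036 to 0.10 for Hsp90aa1 and -0.042 to 0.43 for the summed pair; by genotype at 11.1 mM, -0.075 to 0.28 for Hspa1a, -0.025 to 0.20 for Hsp90aa1, -0.11 to 0.0044 for Bag3 and -0.00048 to 0.32 for the summed pair; for the interaction, -0.24 to 0.37 for Hspa1a, -0.12 to 0.42 for Hspa1b, -0.14 to 0.017 for Hsp90aa1, -0.014 to 0.29 for Hspb1, -0.028 to 0.082 for Dnajb1, -0.054 to 0.088 for Hspd1 and -0.18 to 0.36 for the summed pair; and for the mitochondrial level, -0.31 to 0.0061 for Hspa1a (-0.32 with the mIAPP library of set 7 at 16.7 mM alone left out). Depth limits Hspa1a, Hspa1b and Hspb1, which had 19, 28 and 46 counts in their lowest libraries.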

Other observations

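The 10 genes together summed to 1995 ± 102 CPM for hIAPP and 1771 ± 134 CPM for mIAPP libraries at 16.7 mM glucose (SD, n = 8 each), and to 1463 ± 161 CPM for hIAPP and 1415 ± 215 CPM for mIAPP libraries at 11.1 mM, most of it from Hspa8 and Hsp90aa1. The relative spread between sets was smallest in hIAPP islets at 16.7 mM for Hspa8, Hsp90aa1, Hspd1, Hsph1 and Hspb1. It was not smallest there for Hspe1, Bag3, Dnajb1, Hspa1a or Hspa1b. For Hspa8 the coefficient of variation over 8 libraries was 5.63% there, and 16.1, 18.3 and 19.9% in the other groups in the same order. For Hsp90aa1 it was 4.95%, against 25.5, 22.0 and 55.2%, and for Hspd1 5.86%, against 14.4, 17.0 and 19.4%. For Hspe1 it was 10.8%, against 7.93, 7.80 and 21.9%. For Bag3 it was 15.4%, against 8.97, 7.86 and 12.5%, and so the largest of the 4 groups. It was also the largest for Hspa1a, at 118% against 51.1, 42.8 and 88.2%, and for Hspa1b, at 118% against 57.9, 35.4 and 75.0%. The mitochondrial share varied least in hIAPP islets at 16.7 mM, with an SD of 1.63 percentage points against 11.2, 7.83 and 11.6. Its mean was also lowest there, and the coefficient of variation differed less, at 40.2% against 99.1, 47.2 and 63.5%. These differences in spread were not tested.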
